A study of Saccharomyces cerevisiae with 9 samples.

Results

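Pcf11-DNL and Pcf11-13 are budding yeast strains (Saccharomyces cerevisiae, w303) that carry different alleles of PCF11, and their whole transcriptomes were set against each other in the 6 libraries that the labels give to these alleles, of 9 in the series. Both strains, and the wild type from which the other 3 libraries came, are MAT alpha haploids with auxotrophic alleles of URA3, TRP1, ADE2, HIS3 and LEU2 (the leu2 allele is spelled differently for Pcf11-DNL), and in each of them TRP1 takes the place of the chromosomal PCF11 gene. The essential gene is then supplied by a LEU2 plasmid, described as low copy and centromeric, that bears pcf11-13 in Pcf11-13, V5-pcf11-deltaN-linkMYC in Pcf11-DNL and V5-PCF11-MYC in wild type. The vector name in the labels usually belongs to a high copy series, so the copy number behind the PCF11 and LEU2 levels is uncertain. No tag is named for pcf11-13, so allele and tag cannot be told apart, and what deltaN and link remove or add is not given in the sources used here. Each group held 3 biological replicates, grown at 30 °C from an OD600 of 0.2 and harvested at 1.0 to 1.2. All libraries are labelled with glucose as treatment, although caffeine is also spoken of in the growth protocol. Poly(A) RNA was sequenced as pairs of 150-base reads, and the authors deposited an expected count per gene and library.

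Pcf11 is a subunit of cleavage factor IA, the complex that helps to cut nascent mRNA at the poly(A) site, and its N-terminal domain binds the phosphorylated C-terminal tail of RNA polymerase II. It is also needed for polymerase to leave the template, at the ends of mRNA genes and at the short non-coding snoRNA genes, where termination runs through the RNA-binding proteins Nrd1 and Nab3. In pcf11-13 the substituted residues lie in the tail-binding domain, and the allele is known for transcription that runs past snoRNA genes.

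PCF11 (systematic name YDR228C; reference position on chromosome IV, 921926 to 923806, minus strand, where the copy is deleted here) was, among genes that averaged 5 CPM or more, the transcript with the largest decrease from Pcf11-13 to Pcf11-DNL. Its level in CPM (counts scaled by the library total and its TMM factor) was 68.4, 64.5 and 69.3 in the Pcf11-DNL libraries, 677, 613 and 653 in the Pcf11-13 libraries and 81.4, 87.5 and 85.1 in wild type. The Pcf11-13 libraries thus stood far above the others, and Pcf11-DNL lay just below wild type without overlap. The log2 fold change of Pcf11-DNL over Pcf11-13 was -3.27 ± 0.05 (SE, n = 3 libraries per group; adjusted p = 2.0e-16), and Pcf11-DNL against wild type gave -0.33 (adjusted p = 0.00072). The counts cover the annotated gene as a whole, and how much of it the DNL construct can supply is not given in the sources used here. LEU2, the marker on the plasmid, was higher in Pcf11-DNL (219 CPM ± 5.52, SD, n = 3) than in Pcf11-13 (122 ± 3.98), with 199 CPM in wild type and a log2 fold change of 0.85 ± 0.04 (SE; adjusted p = 3.0e-10), the opposite direction to PCF11. TRP1, which replaced the chromosomal gene, differed by 0.13 ± 0.05, and without Pcf11-DNL replicate 1, Pcf11-13 replicate 1 or Pcf11-13 replicate 2 it did not pass the test (adjusted p of 0.0885 to 0.132). The transcripts of the mating pheromone genes followed the labelled mating type. MF(ALPHA)1, the main gene for alpha factor, stood at 846 to 1119 CPM in the 9 libraries. The a-factor genes MFA1 and MFA2 had 1 count between them in all 9 and AGA2, for the a-agglutinin subunit, too few counts to be tested. Other a-specific genes were detected. STE6 had means of 25.6 CPM in Pcf11-DNL, 36.0 in Pcf11-13 and 22.6 in wild type, and STE2, BAR1 and ASG7 had smaller means in each group.

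Of 5646 genes tested, 1665 (29.5%) were higher and 1742 (30.9%) lower in Pcf11-DNL than in Pcf11-13, 60.3% in either direction. Most of these differences were small: 83.4% of the higher and 67.7% of the lower ones were under 0.5 on the log2 scale. At least 2-fold, 40 genes (0.708%) were higher and 166 (2.94%) lower. The libraries of the alleles did not overlap in 67.0% of genes. Totals of expected counts lay between 11372819 and 15906466 per library, and the first principal component (63.7% of the variance) set Pcf11-13 apart from the other groups. TMM factors were 1.084 to 1.098 in Pcf11-13 and 0.9711 to 0.9804 in Pcf11-DNL, so the scaling moves with the allele. With library totals in place of TMM, fold changes shifted by a median of -0.16 (from -0.17 to -0.04) and the split became 870 higher and 2982 lower (22.6% of the calls were then higher, against 48.9%). Changes are therefore best read against the median of all genes, -0.02 with TMM and -0.18 with library totals. Counts of list members called with library totals are likewise best read against 870 higher and 2982 lower of all 5646 genes. Replicate 1 of wild type differed from the other wild type libraries (chi-square per degree of freedom of 10.67 and 10.06, where the mutant pairs gave 2.49 to 4.68), and the genes behind snoRNA genes, REF2 and the genes on opposite sides of wild type are also given without it.

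**Figure D1:**
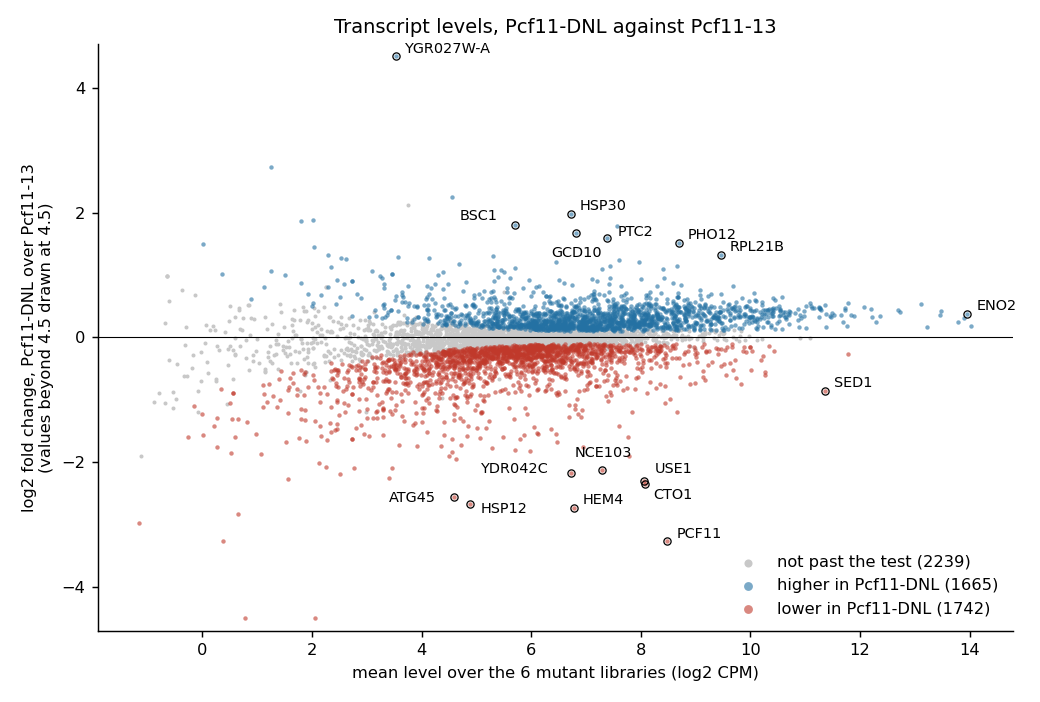
Each point is a gene, with its mean level over the 6 mutant libraries (log2 CPM) on the x axis and the log2 fold change of Pcf11-DNL over Pcf11-13 on the y axis. Blue points are the 1665 genes higher and red points the 1742 genes lower in Pcf11-DNL, grey points the 2239 not past the test. Circled genes are named: PCF11, HEM4, USE1 and CTO1 lie at the bottom, HSP30, PHO12 and RPL21B above the main cloud.

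In all, 57.6% of genes passed the test, averaged 5 CPM or more over the 6 libraries and did not overlap between the alleles. Among the 12 of these with the largest decrease from Pcf11-13 to Pcf11-DNL, 4 start directly behind a snoRNA gene on the same strand. HEM4 (uroporphyrinogen III synthase, of haem synthesis; chromosome XV, 842817 to 843644) had 27.96, 30.06 and 28.05 CPM in Pcf11-DNL, 186, 194 and 191 in Pcf11-13 and 26.4, 25.7 and 27.9 in wild type. Pcf11-13 stood alone on the high side. The difference between the alleles was -2.73 ± 0.05 on the log2 scale (adjusted p = 5.1e-16), while Pcf11-DNL against wild type, at 0.10, did not pass the test (adjusted p = 0.26). USE1 (a SNARE of vesicle traffic back to the endoplasmic reticulum; chromosome VII, 317342 to 318079) had 91.1, 90.4 and 86.5 CPM in Pcf11-DNL, 443, 475 and 444 in Pcf11-13 and 25.5, 27.3 and 30.5 in wild type. CTO1 (chromosome III, 141217 to 142170) had 88.4, 89.4 and 94.1, then 444, 450 and 437, then 20.3, 24.0 and 21.2. YDR042C (an uncharacterised gene; chromosome IV, 540601 to 541203) had 39.7, 38.6 and 36.4, then 171, 172 and 177, then 11.5, 12.6 and 10.9. In these last 3 genes the groups formed 3 separate steps, with Pcf11-DNL between wild type and Pcf11-13. USE1 differed between the alleles by -2.35 ± 0.05, CTO1 by -2.29 ± 0.05 and YDR042C by -2.18 ± 0.05 (adjusted p of 4.5e-15 to 7.1e-15), and Pcf11-DNL was above wild type by 1.68, 2.05 and 1.71 (adjusted p of 2.5e-12 to 9.2e-11). Without wild type replicate 1 these were 1.63, 2.01 and 1.71, and HEM4 stayed at 0.10, not past the test (adjusted p = 0.39).

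The annotation holds 22 tested coding genes that begin within 500 bp behind a snoRNA or snRNA gene outside same-strand coding genes. Of these, 15 were lower and 4 higher in Pcf11-DNL and 3 did not pass the test, with a median log2 fold change of -0.89. Over all genes the shares were 30.9% lower and 29.5% higher. At least 2-fold lower were 11 of the 22, against 2.94% of all genes. Beside HEM4, USE1, CTO1 and YDR042C these were NVJ2 (-1.90), of the nucleus-vacuole contact, TRS31 (-1.68), a subunit of the TRAPP tethering complexes, FLX1 (-1.55), a mitochondrial FAD carrier, UBX6 (-1.42), SMC5 (-1.09), of the Smc5/6 DNA repair complex, BUD22 (-1.05), of ribosome assembly, and SFT1 (-1.04), a Golgi SNARE. The members above Pcf11-13 were RPS14A (0.56), DFR1 (dihydrofolate reductase, 0.48), RPL7A (0.42) and YTM1 (0.22), of which RPS14A and RPL7A encode ribosomal proteins and YTM1 serves ribosome assembly. The 3 that did not pass were SDD3 (0.11), PDX3 (0.01) and TOS2 (-0.14). Against wild type, 16 of the 22 were higher and 6 lower in Pcf11-13, and 4 higher and 7 lower in Pcf11-DNL with 11 not past the test. Over all genes the shares were 35.2% and 30.9% in Pcf11-13 and 8.73% and 4.3% in Pcf11-DNL. Without wild type replicate 1 the counts were 15 higher and 6 lower in Pcf11-13 and again 4 and 7 in Pcf11-DNL (over all genes 34.2% and 30.2%, then 8.36% and 3.55%). These comparisons share the wild type libraries. Of the 7 genes that begin beyond 500 and up to 1000 bp behind such a gene, 5 were higher (ASN1, TMA20, PMD1, POL5 and ERG25, from 0.12 to 0.39), RGT1, a repressor of hexose transporter genes, was lower (-0.61 ± 0.06) and CAF40 (-0.12) did not pass. With library totals 17 of the 22 nearer genes were lower and 3 higher, and of the 7 farther genes 2 and 3. Of all 5646 genes 2982 were then lower and 870 higher.

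**Figure D2:**
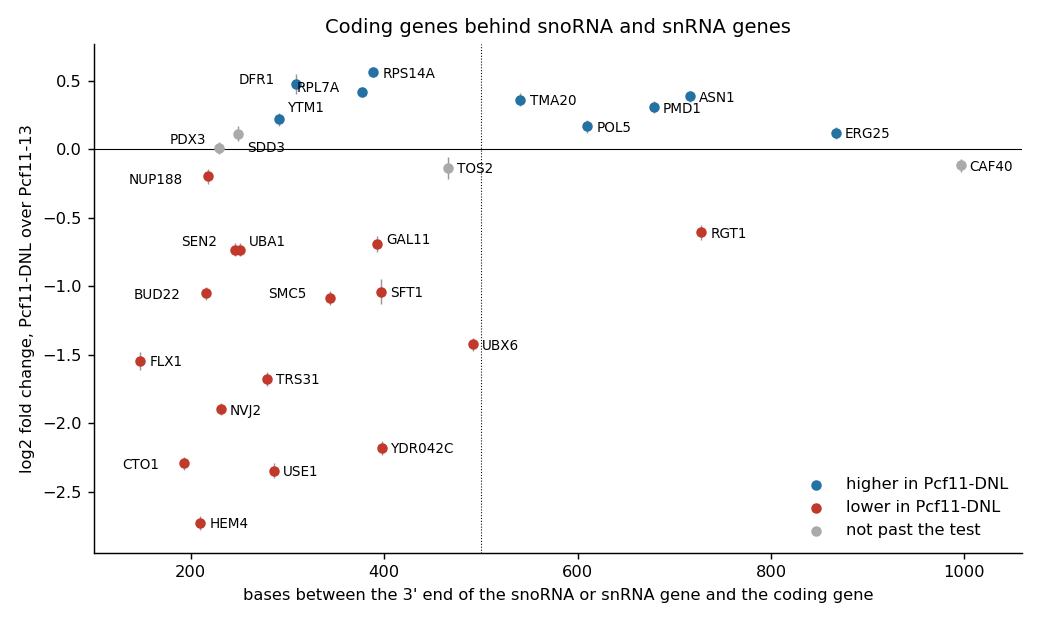
The x axis gives the bases between the end of a snoRNA or snRNA gene and the coding gene behind it, the y axis the log2 fold change of Pcf11-DNL over Pcf11-13, with bars of 1 SE, for 29 genes. The dotted line marks 500 bp. All genes lower by 1 or more lie to its left, mixed with genes that are higher or did not pass.

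The bases just past the snoRNA genes are shown for the 6 whose following gene had the largest decrease and for 3 whose following gene was not lower, since the decrease was not shared by all neighbours. Each line holds the 120 bases that follow the annotated snoRNA end, read from the R64 genome (the assembly of sacCer3) on the strand of the snoRNA, with TCTT, the core of Nab3 sites, and GTAA and GTAG, the cores of Nrd1 sites, in capitals. The windows lie at chrXV:842607-842726 (plus strand, SNR5), chrVII:317056-317175 (plus, SNR82), chrIII:142244-142363 (minus, SNR33), chrIV:541482-541601 (minus, SNR47), chrXVI:718580-718699 (minus, SNR51), chrIV:1403043-1403162 (plus, SNR13), chrII:307065-307184 (minus, SNR161), chrXV:135968-136087 (minus, SNR58) and chrIII:178490-178609 (minus, SNR189).
SNR5 before HEM4: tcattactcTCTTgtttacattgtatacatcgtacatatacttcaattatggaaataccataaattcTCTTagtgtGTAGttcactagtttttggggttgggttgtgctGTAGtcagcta
SNR82 before USE1: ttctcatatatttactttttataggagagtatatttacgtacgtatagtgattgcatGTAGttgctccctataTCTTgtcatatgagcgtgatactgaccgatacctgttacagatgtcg
SNR33 before CTO1: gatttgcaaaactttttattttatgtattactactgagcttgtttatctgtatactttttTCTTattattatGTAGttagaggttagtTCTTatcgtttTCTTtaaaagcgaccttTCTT
SNR47 before YDR042C: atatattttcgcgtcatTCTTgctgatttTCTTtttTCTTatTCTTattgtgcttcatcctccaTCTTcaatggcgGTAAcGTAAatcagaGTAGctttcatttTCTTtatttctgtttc
SNR51 before NVJ2: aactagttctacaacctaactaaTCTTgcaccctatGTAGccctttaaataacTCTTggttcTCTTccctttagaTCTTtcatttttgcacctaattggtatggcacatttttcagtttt
SNR13 before TRS31: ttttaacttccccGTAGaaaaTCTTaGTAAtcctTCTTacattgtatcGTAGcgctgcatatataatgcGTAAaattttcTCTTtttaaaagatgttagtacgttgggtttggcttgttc
SNR161 before PDX3: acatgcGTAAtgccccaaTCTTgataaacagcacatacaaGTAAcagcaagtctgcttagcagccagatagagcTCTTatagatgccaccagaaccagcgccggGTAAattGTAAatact
SNR58 before SDD3: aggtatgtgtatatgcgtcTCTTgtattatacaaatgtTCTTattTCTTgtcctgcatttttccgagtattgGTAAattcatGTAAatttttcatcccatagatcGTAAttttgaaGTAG
SNR189 before RPS14A: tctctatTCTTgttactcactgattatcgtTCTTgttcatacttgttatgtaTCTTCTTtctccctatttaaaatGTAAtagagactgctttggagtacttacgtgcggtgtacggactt
TCTT stood on the snoRNA strand in 100% of the 22 windows within the 500 bp limit, and in 58.1% of windows of the same length past the stop codons of all 6021 coding genes. GTAG was in 68.2% and 23.9%, GTAA in 54.5% and 47.4%. On the other strand TCTT was in 36.4% and 51.0%, GTAA in 54.5% and 50.2% and GTAG in 27.3% and 27.6%. TCTT together with GTAA or GTAG was in 86.4% of the 22 and 32.5% of all coding windows. Between windows whose following gene was at least 2-fold lower and the other windows, 11 of each, the shares with that pair of motifs were 81.8% and 90.9%, with GTAG 72.7% and 63.6%, and with GTAA 36.4% and 72.7%. Of the genes behind the other 11 windows, 8 passed the test in one direction or the other. Motif matches overlapping each other are counted for both. The windows shown before PDX3, SDD3 and RPS14A hold 6, 7 and 5 matches. Those before the other genes within 500 bp not called lower hold fewer: 4 (RPL7A), 3 (DFR1), 3 (YTM1) and 2 (TOS2). The 3 shown thus do not stand for all such windows. The 6 shown before genes with the largest decrease hold from 2 (USE1) to 9 (YDR042C).

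POL4, a DNA polymerase of end joining, lies 283 bp behind CTO1 on the same strand and was lower in Pcf11-DNL as well (55.8 CPM ± 0.46 against 189 ± 5.43, SD; 35.0 in wild type; log2 fold change -1.76 ± 0.05, adjusted p = 4.0e-14). It is named for its position and was chosen after its value was seen.

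Genes of the termination machinery differed far less than PCF11. Of the 5 cleavage factor I genes, HRP1, which binds the efficiency element of poly(A) sites, was lower in Pcf11-DNL (358 CPM ± 3.09 against 601 ± 15.1, SD; 292 to 312 in wild type; log2 -0.75 ± 0.04, adjusted p = 5.9e-10), RNA15 was lower by 0.17 ± 0.06, and 2 did not pass. RNA15 lost its call when Pcf11-DNL replicate 1, Pcf11-13 replicate 1 or Pcf11-13 replicate 2 was left out (adjusted p of 0.0762 to 0.099). In the nuclease and poly(A) polymerase modules of the cleavage and polyadenylation factor (CPF), 6 of 8 genes did not pass, where 39.7% of all genes did not. With library totals 6 of these 8 were lower and none higher, and all 5 cleavage factor I genes were lower. Of all 5646 genes 2982 were then lower and 870 higher. In the CPF phosphatase module 6 of 7 were higher, against 29.5% of all genes. They were led by SYC1 (0.54 ± 0.08) and by SSU72 (0.53 ± 0.10), a phosphatase of the polymerase tail. With library totals 2 of these 6 were called higher, against 870 of all 5646 genes. REF2, which ties that module to snoRNA ends, had 143, 154 and 141 CPM in Pcf11-DNL, 166, 166 and 166 in Pcf11-13 and 73.7, 75.2 and 75.0 in wild type. Both alleles were above wild type, by 0.96 and 1.15 on the log2 scale (0.96 and 1.14 without wild type replicate 1), and between the alleles the difference was small, -0.19 ± 0.04 (adjusted p = 0.0014).

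Of 8 genes of the Nrd1-Nab3-Sen1 complex and of TRAMP, which hands RNA to the nuclear exosome, 4 were higher and none lower with TMM, against 29.5% higher of all genes, but 1 higher and 4 lower with library totals. The helicase gene MTR4 had the largest difference (532 CPM ± 21.7 against 350 ± 20.2; log2 0.61 ± 0.06, adjusted p = 3.3e-07). Of 13 nuclear exosome genes 10 were higher and none lower, with a median of 0.23, and DIS3 (0.38 ± 0.06) and RRP6 (0.33 ± 0.06), both ribonucleases, were among them. With library totals 4 of the 13 were called, all higher. Among 23 genes for kinases of the polymerase tail, elongation factors and the exonuclease that ends transcription, 11 were higher (47.8%) and 2 lower (8.7%). Of all genes 29.5% were higher and 30.9% lower. SPT6 (0.40) and ELF1 (0.44) were among the 11. With library totals 6 were higher and 10 lower, and the median of 0.12 became -0.05. A set of 12 genes drawn up for links to transcription termination was mostly lower in Pcf11-DNL, 9 of 12 with a median of -0.61. Its members are not all controlled by an early end of their own transcripts. It contains PCF11 and HRP1. Of its other members, GSC2, a stress-linked glucan synthase subunit, differed by -1.60 ± 0.05 (109 CPM ± 4.28 against 329 ± 15.6) and SER3, of serine synthesis, by -0.89 ± 0.05, while RPL9B was higher by 0.65 ± 0.04.

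Ribosome genes were higher in Pcf11-DNL almost throughout. Of 135 ribosomal protein genes tested, 132 were higher, 0 lower and 3 not past the test, with a median log2 fold change of 0.40. They took 17.0% ± 0.311 (SD, n = 3) of the counts in Pcf11-DNL, 14.3% ± 0.247 in Pcf11-13 and 17.1% ± 0.567 in wild type. Ribosome biogenesis genes gave 144 higher and 1 lower of 146, median 0.43, with SDA1 at 0.86 ± 0.07 and NOC4 at 0.66 ± 0.05. The lower one was BUD22, which lies behind SNR72 and had 229, 226 and 228 CPM in Pcf11-DNL, 493, 471 and 450 in Pcf11-13 and 248, 221 and 229 in wild type. With library totals 118 ribosomal protein and 116 biogenesis genes were higher and 0 and 1 lower. Against wild type (TMM) the ribosomal protein median was -0.44 in Pcf11-13 and -0.04 in Pcf11-DNL, and the biogenesis median -0.50 and -0.09. RPL21B (ribosomal protein L21; chromosome XVI, 406636 to 407539) led the family with 986, 1038 and 1008 CPM in Pcf11-DNL, 396, 400 and 415 in Pcf11-13 and 1054, 1098 and 1063 in wild type. Its Pcf11-DNL libraries lay just below wild type and did not overlap Pcf11-13 (log2 1.32 ± 0.04, adjusted p = 4.7e-13). Most ribosomal protein genes have a near-identical copy, among which the authors' counting may split reads, so values of single copies are uncertain. RNA polymerase subunits gave 25 higher and 1 lower of 31 (median 0.33; RPC31, 0.50), and tRNA modification genes 24 higher and 0 lower of 29 (median 0.31); with library totals these were 19 and 1, and 17 and 4. GCD10, a subunit of the tRNA methyltransferase for adenosine, stood out in that group with 164, 182 and 172 CPM in Pcf11-DNL, 54.8, 51.8 and 56.2 in Pcf11-13 and 189, 180 and 180 in wild type. The Pcf11-13 libraries stood alone on the low side (log2 1.67 ± 0.05, adjusted p = 4.7e-13). Histone genes gave 9 higher (81.8%) and 1 lower (9.09%) of 11, against 29.5% and 30.9% of all genes. HTB2 was among the higher (0.54 ± 0.04), and the lower one was CSE4 (-0.30 ± 0.06), the centromeric histone. With library totals 5 were higher and 2 lower.

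Stress and reserve genes were lower in Pcf11-DNL than in Pcf11-13. Of 85 stress-induced genes tested, 69 were lower and 5 higher, with a median of -0.65. Against all wild type libraries their median was 0.78 in Pcf11-13 and 0.10 in Pcf11-DNL. For trehalose and glycogen genes these medians were 0.70 and 0.08, for autophagy genes 0.44 and 0.10, and for proteasome genes 0.18 and -0.01. HSP12, a small membrane-protecting heat shock protein, had 7.93, 8.01 and 8.15 CPM in Pcf11-DNL, 53.2, 49.7 and 49.9 in Pcf11-13 and 8.34, 12.8 and 10.9 in wild type. Pcf11-DNL was the lowest group (log2 -2.66 ± 0.10, adjusted p = 7.4e-12). HSP30, a regulator of the plasma membrane proton pump and a heat shock gene too, showed the reverse, with 172, 175 and 157 CPM in Pcf11-DNL, 41.9, 44.4 and 41.8 in Pcf11-13 and 94.8, 97.9 and 95.7 in wild type. Its groups did not overlap in any pairing (log2 1.98 ± 0.05, adjusted p = 5.1e-14). Trehalose and glycogen genes gave 17 lower and 2 higher of 20 (median -0.49), with glycogen phosphorylase GPH1 at -1.59 ± 0.07 and the debranching enzyme GDB1 at -1.47 ± 0.05. Autophagy genes gave 29 lower and 1 higher of 39 (median -0.39), with ATG39, a receptor for the turnover of nuclear material, lowest within the list (-2.26 ± 0.14; ATG45 is not in the list), and the higher one was ATG5 (0.48 ± 0.08). Proteasome genes gave 33 lower and 1 higher of 39, with a median of -0.22, so many members moved by little. Oxidative defence genes gave 17 lower (45.9%) and 8 higher (21.6%) of 37, against 30.9% and 29.5% of all genes. With library totals 23 were lower and 3 higher, against 2982 and 870 of all 5646 genes. SRX1, sulfiredoxin, was the lowest there (-2.18 ± 0.21, from 9.29 CPM in Pcf11-13 to 2.05) and TRX1, thioredoxin, was higher (0.66 ± 0.05). Chaperones gave 13 higher (35.1%) and 11 lower (29.7%) of 37, near the shares of all genes (29.5% and 30.9%), and 7 higher and 21 lower with library totals, with the ribosome-bound SSB1 (0.46) above and the small heat shock protein HSP26 (-1.54) below.

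Genes of sugar metabolism split by pathway. Glycolysis and fermentation gave 16 higher (66.7%) and 5 lower (20.8%) of 24, against 29.5% and 30.9% of all genes. With library totals 10 were higher and 7 lower. ADH1, alcohol dehydrogenase, was at 10462 CPM ± 112 (SD) in Pcf11-DNL and 7230 ± 69.5 in Pcf11-13 (log2 0.53 ± 0.04, adjusted p = 1.0e-08), and ENO2, FBA1 and PDC1 also stood among the 5 genes with the largest gain in CPM, the other being TEF1, translation elongation factor 1 alpha. GLK1, the glucokinase linked to poor carbon sources, was lower (-1.23 ± 0.08). Genes for growth on nonfermentable carbon gave 33 lower and 3 higher of 47 (median -0.38). Against wild type their median was 0.55 in Pcf11-13 and 0.13 in Pcf11-DNL. ADR1, their transcription factor, had 23.6, 23.1 and 23.1 CPM in Pcf11-DNL, 77.8, 87.9 and 77.2 in Pcf11-13 and 23.8, 21.2 and 24.6 in wild type, so Pcf11-DNL and wild type overlapped and Pcf11-13 stood above (log2 -1.80 ± 0.07). The hexose transporter list gave 4 higher (20.0%) and 9 lower (45.0%) of 20, against 29.5% and 30.9% of all genes. With library totals 3 of the 20 were higher and 13 lower, against 870 and 2982 of all 5646 genes. HXT1, for low affinity uptake, was higher by 1.21 ± 0.04 (350 CPM ± 9.09 against 151 ± 2.86). HXT5, for reserve conditions, was lower by 1.03 ± 0.07 (18.7 ± 1.40 against 38.1 ± 0.49). HXT7 (-0.78 ± 0.07) has a near-identical copy in HXT6. Genes of the respiratory chain gave 9 higher (18.8%) and 13 lower (27.1%) of 48, below the shares of all genes (29.5% and 30.9%). Their median was 0.03. Under library totals 2 were higher and 19 lower, with a median of -0.13.

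Nitrogen and cofactor genes followed the stress genes in direction. Of 30 nitrogen use genes 26 were lower and 1 higher (median -0.50). Against wild type their median was 0.61 in Pcf11-13 and 0.15 in Pcf11-DNL. GAP1, the general amino acid permease, had 256, 232 and 249 CPM in Pcf11-DNL, 578, 572 and 535 in Pcf11-13 and 226, 220 and 218 in wild type, with no overlap between the alleles (log2 -1.19 ± 0.05, adjusted p = 1.0e-11). PUT4, the proline permease, was lower by 1.73 ± 0.08, and ASP1, asparaginase, was the higher member (0.64 ± 0.05). Of 36 thiamine and cofactor genes 25 were lower and 2 higher (median -0.50), SNZ1, of vitamin B6 synthesis, by -1.55 ± 0.08. Amino acid synthesis gave 32 higher (47.8%) and 12 lower (17.9%) of 67, against 29.5% and 30.9% of all genes. With library totals 15 were higher and 29 lower, and the median of 0.08 became -0.08. Purine and one-carbon genes gave 13 in each direction of 34 with TMM (38.2%, against 29.5% higher and 30.9% lower of all genes). With library totals 8 were higher and 18 lower, and the median of 0.02 became -0.14. Within them ADE16 (0.54 ± 0.05) and ADE17 (-1.63 ± 0.06), isozymes for the last steps of purine synthesis, went opposite ways: ADE17 had 27.2 CPM ± 2.42 in Pcf11-DNL and 84.0 ± 1.29 in Pcf11-13, ADE16 had 220 ± 11.8 and 152 ± 4.48. The salvage genes APT1 (0.95 ± 0.04) and AAH1 (0.96 ± 0.06) were higher.

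**Figure D3:**
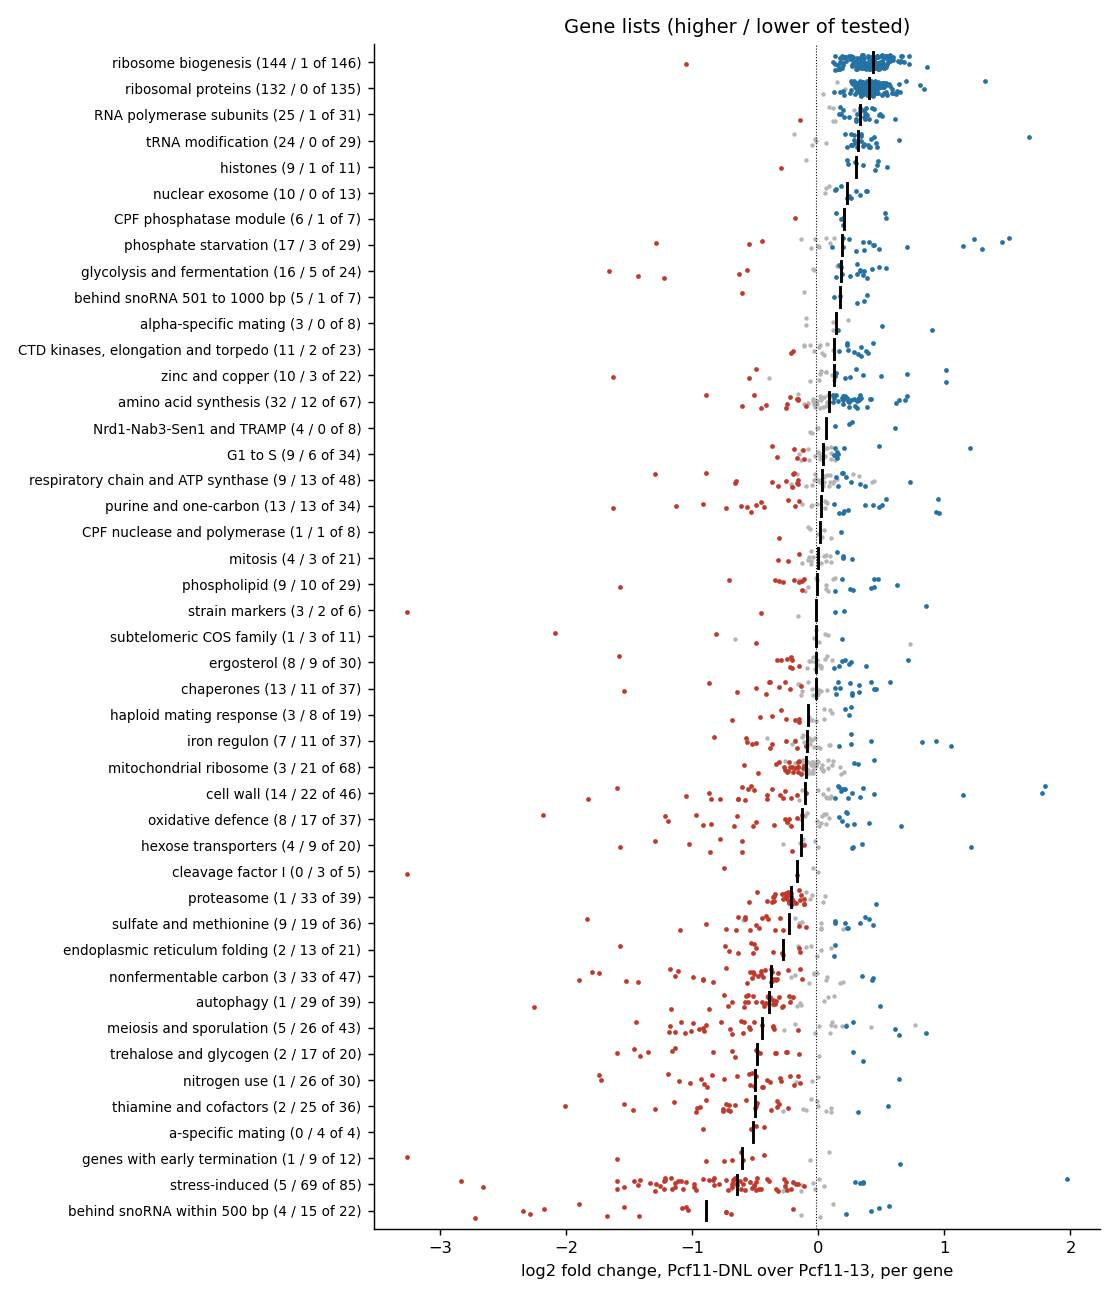
Each row is a gene list and each point a tested member at its log2 fold change of Pcf11-DNL over Pcf11-13, blue where higher, red where lower and grey where not past the test. Black bars are medians, the dotted line is the median of all 5646 genes (-0.02), and the numbers beside each name are the members higher, lower and tested. Ribosome biogenesis and ribosomal proteins stand at the top with few members left of 0, and the genes within 500 bp behind snoRNA genes have the lowest median.

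Phosphate starvation genes gave 17 higher (58.6%) and 3 lower (10.3%) of 29, with a median of 0.19. Of all genes 29.5% were higher and 30.9% lower. With library totals 12 phosphate starvation genes were higher and 9 lower (median 0.03). The acid phosphatase gene PHO12 had 613, 652 and 570 CPM in Pcf11-DNL, 212, 206 and 225 in Pcf11-13 and 1063, 812 and 802 in wild type, so Pcf11-DNL lay between the others (log2 1.51 ± 0.09, adjusted p = 1.0e-09). PHO12 and PHO11 are near-identical copies, among which the counting may split reads, so the value of PHO12 alone is uncertain. PHO5, the main acid phosphatase, was higher by 1.15 ± 0.10 and SPL2, a regulator of phosphate transporters, had 56.1 CPM ± 8.09 against 22.9 ± 1.62, while GDE1 was lower (-0.55 ± 0.04). Of the cell wall genes, 14 were higher (30.4%) and 22 lower (47.8%) of 46, so the share of higher ones was near that of all genes. With library totals 6 were higher and 25 lower, against 870 and 2982 of all 5646 genes. SED1, a major wall protein, had the largest decrease in CPM among genes past the named limits (1873 ± 85.9 against 3389 ± 48.7, wild type 1967; log2 -0.86 ± 0.05), and PIR3 was lower by 1.83 ± 0.08. BSC1 and PRM7, tandem neighbours 519 bp apart that are read as a single gene in w303 strains, were higher by 1.80 ± 0.07 and 1.78 ± 0.08. Endoplasmic reticulum folding genes gave 13 lower and 2 higher of 21 (KAR2, its main chaperone, -0.52 ± 0.05). Genes of meiosis and sporulation gave 26 lower and 5 higher of 43 (median -0.45). The a-specific genes STE2, STE6, BAR1 and ASG7, at means of 1.51 to 36.0 CPM, were all lower, while of the alpha-specific genes MF(ALPHA)2 (0.90 ± 0.05) and STE3 (0.50 ± 0.05) were higher and 5 of 8 did not pass. Among cell cycle genes 19 of 34 for the start of S phase and 14 of 21 for mitosis did not pass, against 39.7% of all genes. With library totals 2 of the 34 were higher and 16 lower, and of the 21 mitosis genes 0 and 12. Of all 5646 genes 870 were then higher and 2982 lower. HO, the mating type endonuclease gene, was higher by 1.21 ± 0.06.

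**Figure D4:**
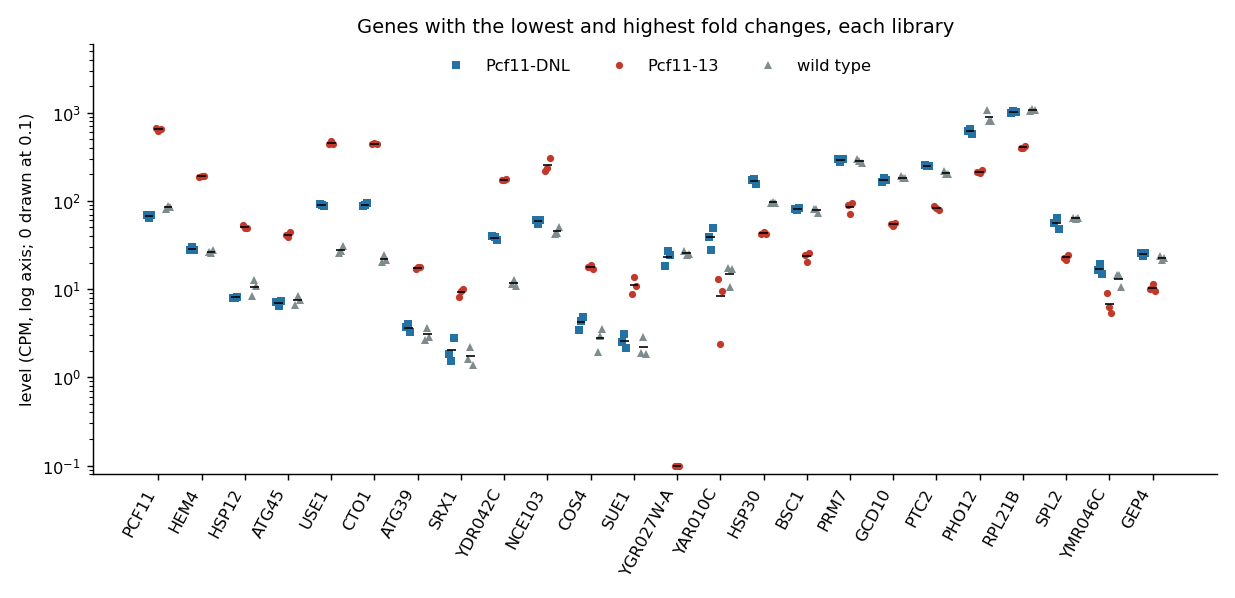
Levels in CPM (log axis, 0 drawn at 0.1) of the 12 genes with the largest decrease and the 12 with the largest increase from Pcf11-13 to Pcf11-DNL, 1 point per library and a bar at each mean. Pcf11-DNL lies near wild type for most genes. It lies between the others without overlap for USE1, CTO1 and YDR042C, and also for PHO12, NCE103 and RPL21B. HEM4 does so by a narrow margin (lowest Pcf11-DNL library 27.96 CPM, highest wild type library 27.85).

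The remaining genes with the largest decrease were ATG45, NCE103, COS4 and SUE1. NCE103, carbonic anhydrase, had 60.5, 54.2 and 60.3 CPM in Pcf11-DNL, 216, 237 and 309 in Pcf11-13 and 42.5, 43.2 and 50.5 in wild type. The Pcf11-13 libraries were uneven but stood well above the rest (log2 -2.12 ± 0.11, adjusted p = 1.6e-10). COS4 (-2.09 ± 0.16) belongs to a subtelomeric family of near-identical copies. Of its 11 tested members 3 were lower, 1 was higher and 7 did not pass, where 39.7% of all genes did not. On the higher side, YGR027W-A, a Gag frame of a Ty1 retrotransposon on chromosome VII, had 0 counts in each Pcf11-13 library, 27.1, 24.3 and 25.3 CPM in wild type and 18.4, 27.0 and 24.1 CPM in Pcf11-DNL. Taken against a floor of 3 counts per library it was at least 107-fold higher in Pcf11-DNL. YGR038C-A, another Ty1 frame named because it had no counts in Pcf11-DNL, had 5.42, 4.81 and 0 CPM in Pcf11-13, so the alleles overlapped although the gene passed the test (adjusted p = 0.00094). Ty frames are near-identical copies, among which the counting may split reads; how reads were assigned was not tested. YAR010C, a Ty1 Gag frame on chromosome I, had means of 8.31 CPM in Pcf11-13, 14.9 in wild type and 38.8 in Pcf11-DNL, and YPR137C-A, another Ty1 frame, 8.18, 14.9 and 0.14. The log2 fold change of YAR010C, 2.24 ± 0.32, and that of YMR046C (1.29 ± 0.17), another Gag frame, are uncertain. GEP4, a mitochondrial phosphatase of cardiolipin synthesis, was higher by 1.28 ± 0.09.

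Some genes lay on opposite sides of wild type in the alleles. By rule the 6 with the largest difference in each direction were taken among genes that differed from wild type in both mutants. PCF11, HSP12, TRS31, PGM2, YNL115C and UBA1 were above wild type in Pcf11-13 and below it in Pcf11-DNL. TRS31, behind SNR13, had 45.6, 40.2 and 40.5 CPM in Pcf11-DNL, 134, 137 and 133 in Pcf11-13 and 60.0, 56.9 and 59.6 in wild type, so Pcf11-DNL fell on the side away from Pcf11-13 (log2 -0.48 against wild type, adjusted p = 2.7e-05). UBA1, the ubiquitin activating enzyme, lies behind SNR64 and was lower by 0.73 ± 0.05 (380 CPM ± 12.7 against 632 ± 20.7, with 433 ± 21.9 in wild type). PGM2, phosphoglucomutase, was lower by 1.42 ± 0.07. In the other direction stood YAR010C, HSP30, PTC2, CMK2, TPO4 and YOL014W. PTC2, a protein phosphatase of stress and checkpoint signalling, had 255, 247 and 250 CPM in Pcf11-DNL, 87.4, 83.3 and 79.0 in Pcf11-13 and 219, 201 and 200 in wild type (log2 between alleles 1.59 ± 0.05, adjusted p = 4.7e-13). CMK2, a calmodulin-dependent kinase, and TPO4, a polyamine exporter, were higher by 1.10 ± 0.07 and 1.09 ± 0.07. Both mutants were compared with the same wild type libraries. Without wild type replicate 1, YAR010C no longer passed the test in Pcf11-13 (adjusted p = 0.0848), and the other 11 kept their directions and calls.

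**Figure D5:**
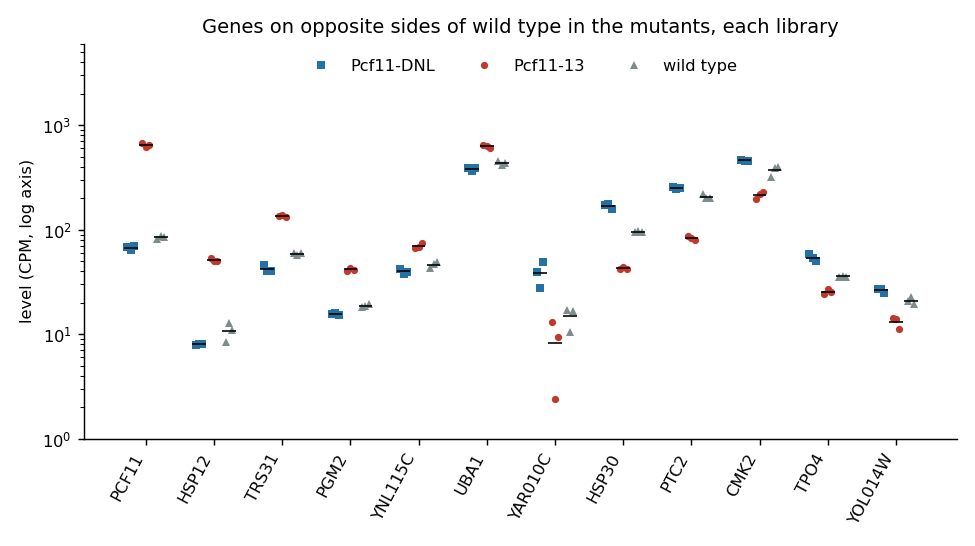
Levels in CPM (log axis) in each library, with a bar at each mean, of the 12 genes that lay on opposite sides of wild type in the mutants. For the first 6 genes Pcf11-DNL is the lowest group and Pcf11-13 the highest, for the last 6 the reverse.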

How the data were processed

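RNA was measured in 9 cultures, 3 per group. Per the submitters' processing notes, STAR 2.6.1b and RSEM 1.3 were used with build sacCer3, along with Trimmomatic 0.38, DESeq2 1.26.0 and FastQC; no label states strand, annotation or settings. The authors deposited expected counts per gene, not normalized, from 11372819 to 15906466 per library. They were rounded and analysed with edgeR 4.0.16 (R 4.3.3): filterByExpr (minimum count 10) kept 5646 of 5928 genes, TMM scaling, and 1 quasi-likelihood fit of all 9 libraries, tested two-sided with Benjamini-Hochberg adjustment over all genes (threshold 0.05). The biological coefficient of variation was 4.59%. The pipeline was tested on simulated data. Genes were matched to R64 (5919 of 5928).

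Members and lists were chosen with earlier results of these data known. Named were the label checks; the 12 highest and 12 lowest log2 fold changes (past the test, 5 CPM or more on average, alleles not overlapping); the 5 largest CPM differences and the 6 largest opposite to wild type in each direction; and up to 4 members of a list with 1 in the other direction. Genes outside this are listed for position, or because they were at 0. All p-values measure the spread between biological replicates. Alternatives were other scalings and filters, DESeq2 1.42.0, limma-voom (limma 3.58.1), a minimum fold of 1.5, the mutants alone, replicate number as a block, and leaving out each library. The block within the 6 mutant libraries and the fit without wild type replicate 1 were added after seeing the data.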

Additional observations from a re-analysis of the deposited data

How the results depend on the processing

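In the alternatives, genes higher and lower in Pcf11-DNL numbered 870 and 2982 with library totals and 69 and 229 against a minimum fold of 1.5, where 1665 and 1742 were reported. All others lay within 1.5 times, from 1465 to 1588 higher and 1519 to 1628 lower when 1 mutant library was left out, 1624 and 1511 with the DESeq2 Wald test, and 1754 and 1839 without wild type replicate 1. Replicate numbers did not pair the libraries: deviations of same-number libraries of the alleles correlated at -0.133, 0.045 and -0.044, and with replicate number as a block 1702 genes were higher and 1764 lower. With library totals positive medians turned to -0.15 for the CPF nuclease and polymerase, -0.14 for purine and one-carbon, -0.13 for the respiratory chain, -0.12 for the start of S phase, -0.10 for Nrd1 and TRAMP, -0.08 for amino acid synthesis, -0.05 for kinases, elongation and exonuclease, -0.05 for zinc and copper and -0.03 for alpha-specific genes, and the fold change of TRP1 to -0.04, MF(ALPHA)1 to -0.01, TRF5 to -0.03, SEC63 to -0.03, POL1 to -0.01 and FKH2 to -0.01. That setting shifted fold changes by a median of -0.16. The ergosterol median, -0.02, became 0.00 when TMM left out ribosome and stress genes, and 0.00 without Pcf11-DNL replicate 3, where the cause was not tested.

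The strand setting is not known, so reads of a gene and of transcripts running through it from the other strand cannot be told apart, nor can reads that start in the gene from reads that start upstream. With 3 libraries per group and a low spread, differences of well under 0.2 on the log2 scale passed the test, and such calls rest on the scaling. Levels below about 5 CPM, as for SRX1 or COS4 in Pcf11-DNL, rest on few counts. Growth rate was not measured in the files used here.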

Other observations

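Coding genes whose 3′ end faces the 3′ end of a snoRNA or snRNA gene on the other strand differed between the alleles too. This list was drawn up after the values of PAM16 and EFM3 had been seen, so it is described without a test. Within 500 bp there were 29 such tested genes, of which 18 were higher and 3 lower in Pcf11-DNL and 8 did not pass the test, with a median log2 fold change of 0.39. Over all genes 29.5% were higher and 30.9% lower. The direction is the opposite of that of most genes within 500 bp behind snoRNA genes on the same strand. The lists are not fully separate: RPS14A faces SNR65 and lies behind SNR189, and PMD1 faces SNR4 and lies 679 bp behind SNR52. With library totals 17 were higher and 7 lower, with a median of 0.23. Of all 5646 genes 870 were then higher and 2982 lower. The list holds 4 ribosomal protein genes, a group that was higher as a whole.

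PAM16, a subunit of the mitochondrial import motor that faces SNR37 at 317 bp, had 33.4, 38.3 and 34.6 CPM in Pcf11-DNL, 15.1, 15.4 and 16.8 in Pcf11-13 and 49.9, 47.5 and 50.0 in wild type, a log2 fold change between the alleles of 1.17 ± 0.08 (SE; adjusted p = 3.4e-09). EFM3, a methyltransferase for a translation elongation factor, faces SNR3 at 57 bp and had 26.9, 28.2 and 29.8 CPM, then 13.5, 12.9 and 14.6, then 34.5, 38.9 and 37.9 (1.05 ± 0.08). In both genes the groups formed separate steps, with wild type highest and Pcf11-13 lowest. VMA9, a subunit of the vacuolar proton pump that faces SNR43 at 86 bp, showed the same order, at 12.6 CPM ± 0.54 (SD, n = 3) in Pcf11-DNL, 6.37 ± 0.56 in Pcf11-13 and 17.8 ± 0.45 in wild type. LIN1, which faces SNR71 at 66 bp, was the member with the largest decrease (-0.86 ± 0.06), with 30.7 CPM ± 2.00, 55.5 ± 1.94 and 21.8 ± 0.89.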
